A study of Homo sapiens with 2 samples.

Results

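The peaks described here are the SOX4 peaks on the assembled short arm of chromosome 21 in the human genome build hg19. They were chosen by position alone, as all peaks on chromosome 21 whose midpoint lay below base 11288129, whatever their score. The rule gave 215 of the 4201 peaks in the authors' list. The remaining 15 peaks of chromosome 21 served as the contrast. Chromatin immunoprecipitation with sequencing, which maps the DNA that comes down with a protein, had been done in LN229, an established glioblastoma line by the series title and labels (the series' design text says prostate). The SOX4 cells were transfected with a Flag-SOX4-HA plasmid and the control cells with GFP-Flag-HA, and anti-Flag antibody was used on both. Each group had 1 library, and only the peak list of the SOX4 library was analysed here. No value below therefore has a replicate error, the read depth behind a peak is unknown, and it was not analysed here whether the GFP library carried signal at the same places.

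SOX4 is an HMG-box transcription factor that binds short SOX motifs in the minor groove and bends the DNA, and it is known in glioblastoma as a factor of stem-like and developmental programmes. Chromosome 21 is acrocentric: its short arm is small, carries ribosomal RNA genes and satellite arrays, and shares long stretches of near-identical sequence with the short arms of the other acrocentric chromosomes and with regions beside other centromeres. Much of it is missing from hg19. Short reads from such stretches fit several places in an assembly. The few known genes of the arm include TPTE, which is expressed in testis, and members of the BAGE family of cancer-testis antigens. No hg19 sequence or annotation was used here, so no peak was assigned to a gene, repeat or motif and no sequence is printed.

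The short arm held nearly all the chromosome's peaks. Of the 230 peaks on chromosome 21, 215 lay on the short arm (93.5%, exact 95% interval 89.5 to 96.3%). They ran from base 9412492 to base 11186926, a span of 1.77 Mb, at a density of 121 peaks per Mb (exact Poisson 95% interval 106 to 138). Beyond the boundary, 15 peaks were spread over 32.9 Mb from base 14338144 to base 47217801, or 0.46 per Mb (0.26 to 0.75). The density on the short arm was 266-fold that of the rest (157 to 483). It was 83.4-fold with peaks at most 5 kb apart joined into 1, and 0.498-fold when only the blocks of peaks described below were counted as length on both sides. All intervals here cover counting error in 1 library and treat peaks as independent, which neighbours are not, and no test was run, because peaks of 1 library are not replicates. Unsequenced bases count in both lengths.

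Peaks covered 529 kb of the short arm, 29.8% of its span, against 32.4 kb and 0.099% beyond it. When the span was cut into 10 kb windows from the first peak, 93 of 178 windows (52.2%) held the midpoint of a peak, and the fullest held 6. Beyond the boundary 10 of 3288 windows did. The short arm made up 5.12% of the peaks in the list and 7.66% of the list's covered length.

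The position of the boundary had no bearing on which peaks were members. The last peak inside it, from 11185667 to 11186926, was 1260 bp wide with a score of 237.90. The first peak outside, from 14338144 to 14340640, was 2497 bp wide with a score of 1112.60. Between them lay 3.15 Mb without a peak, which includes the centromere gap of the assembly.

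Within the arm the peaks fell into separate stretches. With peaks at most 50 kb apart chained together there were 8 blocks, numbered here from the start of the chromosome towards the centromere. The number depends on the distance: it was 11 at 20 kb and 3 at 100 kb. Block 1 held 45 peaks, block 2 held 25, block 3 held 46, block 4 held 31, block 7 held 16 and block 8 held 50. Blocks 5 and 6 were single weak peaks, from 10419211 to 10419837 (score 52.39) and from 10615620 to 10616282 (score 55.90). The 7 stretches between blocks were 50.3 to 206 kb long, and together the blocks took up 1017 kb of the span. Some of these stretches are known to hold unsequenced gaps of hg19, where no read can be placed. The gaps were not located here, so a stretch without peaks cannot be told apart from a stretch without sequence. The map of peaks along the arm shows the blocks and the stretches between them.

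**Figure D1:**
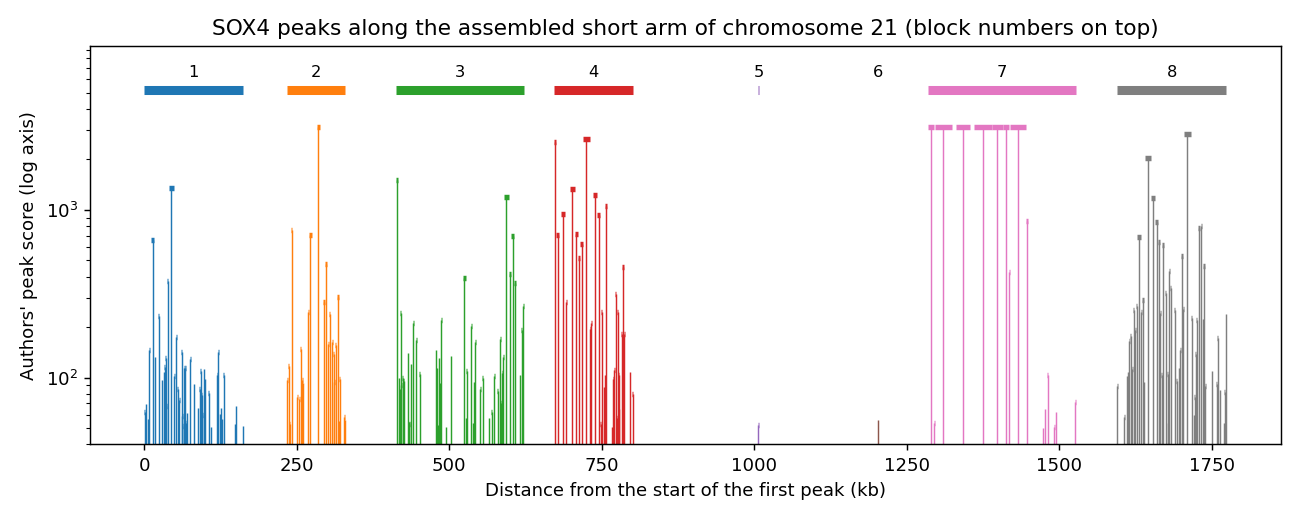
SOX4 peaks along the short arm of chromosome 21, with the distance from the start of the first peak in kb on the horizontal axis and the authors' score on a logarithmic vertical axis. Each thin line is a peak, its flat top is drawn to the peak's width, and the bars on top mark the 8 blocks. The tops at 3100 in block 7 lie close together, with breaks between some of them, while blocks 5 and 6 are single peaks near the lowest score.

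Blocks 1, 2, 3, 4 and 8 had like densities and differed in how much of their length the peaks filled. Density was 278 peaks per Mb in block 1, 262 in block 2, 220 in block 3, 241 in block 4 and 279 in block 8, with exact Poisson intervals that overlap (from 161 to 293 in block 3, from 207 to 368 in block 8). Peaks covered 35.4% of block 1, 46.3% of block 2 and 33.9% of block 3, but 69.6% of block 4 and 61.9% of block 8. At like densities, blocks that were filled more must have a greater mean width, so the widths are not a separate finding. The median width was 1955 bp in block 4 and 1376 bp in block 8, against 991 bp in block 1, 1242 bp in block 2 and 1145 bp in block 3. Block 7 had a lower density, 66.2 per Mb (37.8 to 107), with 64.1% of its length covered and a widest peak of 29494 bp.

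The score is the authors' own value, without a stated scale. The peak names are those written by the program MACS, whose score rises as the p-value falls, and scores are used here only to describe and rank peaks of this list. On the short arm the score ran from 50.18 to 3100, with a median of 114 (quartiles 82.2 and 268). The peaks beyond the boundary had a median of 93.1 (quartiles 60.9 and 600). Of the 215 short-arm peaks, 133 scored 100 or more (61.9%, exact 95% interval 55.0 to 68.4%), against 39.7% of the whole list, and so did 6 of the 15 other peaks of the chromosome (16.3 to 67.7%). The intervals of the short arm and the rest of the chromosome overlap, and with 15 peaks the contrast is imprecise. Scores under 60, close to the lowest in the list, were held by 32 short-arm peaks (14.9%), against 32.4% of the list.

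Another cut, at 1000, was passed by 19 short-arm peaks (8.84%, 5.40 to 13.5%), against 5.59% of the list, an excess that lies within the counting error. They were 43.7% of the covered length of the arm. All 6 blocks with more than 1 peak had at least 1 of them. The value 3100 was reached by 8 peaks (3.72%, 1.62 to 7.20%), against 2.45% of the list, which also lies within the counting error. These 8 peaks covered 151 kb, 28.6% of the covered length of the arm. The list holds 100 peaks at exactly this value and 3 above it, so peaks at 3100 are tied and cannot be ranked by score.

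The median score was highest in block 7 (640), followed by block 4 (244), block 8 (205), block 2 (139), block 3 (108) and block 1 (92.0). The share of peaks scoring 100 or more was 77.4% in block 4 (58.9 to 90.4%), 76.0% in block 8 (61.8 to 86.9%) and 44.4% in block 1 (29.6 to 60.003%). The intervals of block 1 and block 8 do not overlap, while those of block 1 and block 4 do. Among the blocks with more than 1 peak, blocks 4 and 8 had the highest shares and block 1 the lowest. Neighbouring peaks are not independent, so these intervals do not separate the blocks. In block 7 it was 62.5% (35.4 to 84.8%), with 7 peaks at 3100, 1 at 852.43, 1 at 428.20 and 7 from 50.18 to 104.08. The plot of scores by block shows these values beside those of the other blocks.

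**Figure D2:**
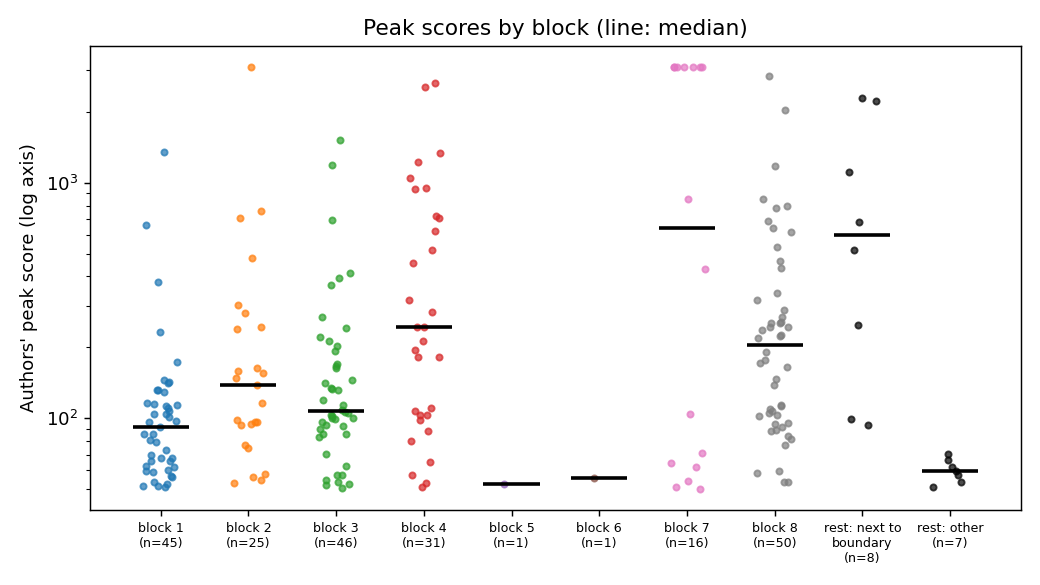
Score of every chromosome 21 peak on a logarithmic axis, by block of the short arm and, at the right, for the peaks beyond the boundary, with the median as a line and the number of peaks in brackets. Points are spread sideways for legibility. Block 7 has 7 points at 3100, and the 7 peaks in the last column all score under 71.

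Block 7 held the widest peaks of the arm. From 10697902 to 10861040, a run of 163 kb with neighbours at most 10 kb apart, 10 peaks covered 92.0% of the bases, and 7 of them scored 3100. The widest spanned 29494 bp from 10772596 to 10802089. It was followed by a peak of 28253 bp from 10708516 to 10736768, one of 26103 bp from 10831864 to 10857966 and one of 23784 bp from 10742722 to 10766505. The other 3 at this score were 18813 bp wide from 10802122 to 10820934, 9725 bp wide from 10697902 to 10707626 and 8655 bp wide from 10820974 to 10829628. Neighbours in this run were often separated by few bases, and several of these intervals were nearly continuous: the 3 peaks from 10772596 to 10829628 covered 99.9% of 57.0 kb. With only peaks at most 1 kb apart joined, the run split into stretches of 38.9, 23.8 and 88.4 kb. Past the run, towards the centromere, block 7 had only 6 narrow peaks, at most 1099 bp wide, up to base 10939738.

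The other 3 of the 10 highest-scoring peaks lay in blocks 2, 8 and 4. In block 2 a 6395 bp peak from 9694784 to 9701178 scored 3100, and the next highest in that block reached 758.46. In block 8 a peak of 11552 bp from 11117070 to 11128621 scored 2846.14. In block 4 a peak of 10737 bp from 10131955 to 10142691 scored 2644.70. The highest in the remaining large blocks were a 3152 bp peak from 9825446 to 9828597 in block 3 (score 1516.24) and an 8428 bp peak from 9452017 to 9460444 in block 1 (score 1350.46). The first peak of the arm, from 9412492 to 9413232, was 741 bp wide with a score of 62.41. The narrowest, from 9907294 to 9907789, was 496 bp wide with a score of 50.36.

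The first peak of a block, on the side away from the centromere, stood high in 3 of the 6 large blocks. In block 3 it had the highest score of the 46 peaks. In block 4 it ranked 2 of 31, with a score of 2544.07 over 3078 bp from 10084957 to 10088034. In block 7 it was 1 of the 7 peaks at 3100. In blocks 1, 2 and 8 the first peak scored 62.41, 96.58 and 89.26 and ranked 34, 16 and 42. This feature was picked after the values were seen, and the sequence edges that may lie there were not located.

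Short-arm peaks lay close together. Over the 214 distances between neighbours the median was 878 bp (quartiles 279 and 2944). Of these, 116 (54.2%) were under 1 kb, 27 (12.6%) were under 100 bp and the shortest was 4 bp. No 2 short-arm peaks overlapped. Beyond the boundary the median of 14 distances was 878459.5 bp, but 6 (42.9%) were under 1 kb and 3 (21.4%) under 100 bp. The shortest there was 6 bp, and all distances under 1 kb there lay within 1 chain of 8 peaks, from 14338144 to 14368863. The shares of short distances beyond the boundary thus rest on that chain, and they do not set the arm apart from it. The median distance was 339 bp in block 4 and 466 bp in block 8, against 1273 bp in block 1, 1075 bp in block 2 and 1008 bp in block 3. Joining peaks at most 1 kb apart turned the 215 peaks into 99 runs, of which 56 were single peaks. Of these runs 7 were at least 20 kb long and held 46 peaks (21.4%) over 291 kb. Outside block 7 the longest was in block 8, from 11034246 to 11088466, where 15 peaks scoring 94.2 to 2044 covered 91.6% of 54.2 kb. Next came a run in block 4 from 10110357 to 10146510, with 7 peaks scoring 194.50 to 2644.70 over 36.2 kb.

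The number of neighbours was counted whatever their score. Peaks scoring under 60 had a median of 3.5 other peaks with a midpoint within 10 kb (from 0 to 9), and peaks from 60 to under 100 had 5, as did those from 100 to under 1000. For the 19 peaks of 1000 or more the median was 2, and their own median width was 8655 bp. In the lower classes of score the median width was 636, 886 and 1615.5 bp. A peak's own width takes up room within 10 kb of its midpoint, and no short-arm peaks overlapped. Peaks of 23784 to 29494 bp reach past 10 kb on both sides, so their count had to be 0. The median of 2 is therefore not comparable with those of the narrower classes. Scores of neighbours within a block had a Spearman correlation of 0.36 over 207 pairs, a description only, since each peak enters as a neighbour of others.

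Width and score rose together on the arm, with a Spearman correlation of 0.96 over the 215 peaks. It was also 0.96 over the 15 peaks beyond the boundary, and 0.89 over the whole list. The points share 1 library, and these correlations are a description. The median short-arm peak was 1191 bp wide (quartiles 865 and 1995 bp), against 768 bp (704 and 2480 bp) beyond the boundary and 838 bp in the whole list. Within classes of width, the median score of the arm was above that of all other peaks of the list in 3 classes and below it in 2, with quartiles that overlapped in each. Among peaks from 1000 to under 2000 bp wide, the median score was 139 for 86 short-arm peaks and 142 for 858 others. From 2000 to under 5000 bp it was 478 for 33 and 416 for 483, with quartiles of 318 to 720 and 307 to 630. From 700 to under 1000 bp it was 83.0 for 41 and 69.8 for 1057. Under 700 bp it was 56.0 for 34 and 54.9 for 1413, and at 5000 bp or more it was 2044 for 21 and 2549 for 175. The mix of widths also differed: 15.8% of the short-arm peaks were under 700 bp and 9.77% were at least 5000 bp, against 35.4% and 4.39% of the other peaks.

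**Figure D3:**
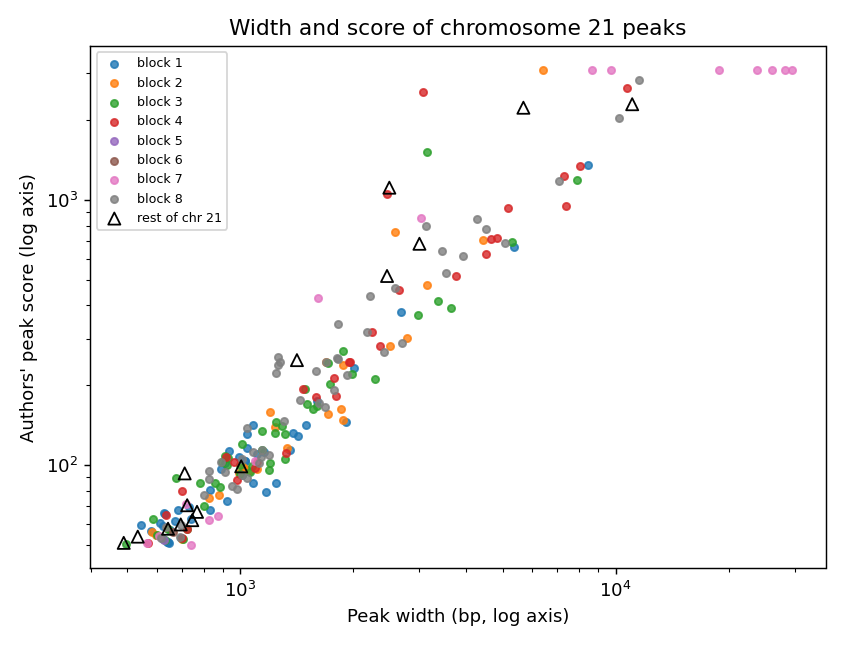
Width in bp and score of each chromosome 21 peak, both on logarithmic axes, with short-arm peaks coloured by block and the 15 other peaks as open triangles. Most points follow a narrow band, a few points, such as the 3078 bp peak that scored 2544.07, lie above it, and the points at 3100 form a flat line.

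A few peaks scored high for their width. Each short-arm peak was ranked among all peaks of the list within 20% of its own width. Of the 215 short-arm peaks, 8 (3.72%) fell in the highest 5%, a share no greater than 5%. This comparison is limited, because some of the widest peaks could not reach the highest 5%. The peaks of 29494, 28253, 26103 and 23784 bp were ranked among only 11, 14, 18 and 18 peaks. Rank 1 there stood at 9.09, 7.14, 5.56 and 5.56% from the top. Of the 215, 125 ranked in the upper part of the peaks of like width, with tied peaks given the best rank. That count includes the peaks of 18813 to 29494 bp at 3100, whose like-width median was also 3100, so they only equalled the middle score. The 8 peaks in the highest 5% include 4 at 3100, with tied ranks. Among these, the 18813 bp peak was ranked among 21 peaks whose median was also 3100. It is counted through ties only, and its score was not high for its width. The 2544.07 peak at the start of block 4 ranked 8 of 251, where the median was 439. A 2454 bp peak in the same block, from 10168440 to 10170893, scored 1049.66 and ranked 14 of 299 (median 317). In block 7 a 1610 bp peak from 10830244 to 10831853, between 2 peaks at 3100, scored 428.20 and ranked 21 of 462 (median 174). The last was a 675 bp peak in block 3, from 9833498 to 9834172, with a score of 89.71 and rank 80 of 1806. These peaks were listed by their rank, so high ranks follow from that choice.

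The contrast beyond the boundary was itself of 2 kinds. A chain of 8 peaks lay at the first bases after the long empty stretch, from 14338144 to 14368863, and the other 7 lay singly from base 22947474 onwards. The 8 peaks covered 90.6% of 30.7 kb at 260 peaks per Mb (112 to 513), which overlaps the densities of blocks 1, 2, 3, 4 and 8. Their median score was 600 (from 93.1 to 2297), and their median width was 2480 bp. The 7 single peaks scored 50.91 to 70.58 and were 490 to 768 bp wide, with a density of 0.29 per Mb (0.12 to 0.59). None of these 7 reached 100, which allows a share of up to 41.0% (exact 95% limit). Measured against those 7 alone, from the first to the last of them, the density of the short arm was 420-fold (200.4 to 1057). This division of the contrast was made after the values were seen.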

How the data were processed

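The data were 1 deposited peak list, from the SOX4 library. Per the submitters' processing notes, the tools were Bowtie 0.12.7 and MACS and the build was hg19. Not given in the sources used here are the version and settings of MACS, the handling of reads that fit several places and the use of the GFP library. Each row of the authors' deposited list has a chromosome, start, end, name and score, with no header, and starts were changed to count from 1. Peaks with midpoints below base 11288129 of chromosome 21 were taken, and peaks at most 50 kb apart were chained into blocks. Density is peaks per Mb from the first start to the last end. Intervals are exact Poisson for counts and Clopper-Pearson for shares, at 95%. The functions were tested on simulated data. The region and the measures were chosen with earlier results of these data known. The peaks named by rule were the 10 with the highest score (ties broken by width), the widest, the narrowest, the highest of each block, the first and last of the arm and the first beyond it. Others are named after their values were seen. A planned check of GC content and motifs was not run, because no hg19 sequence was used here. Calculations used NumPy 2.4.6 and pandas 2.3.3 in Python 3.11.15, statistics SciPy 1.17.1 and plots matplotlib 3.10.9.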

Additional observations from a re-analysis of the deposited data

How the results depend on the processing

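No paired analysis was possible because there was a single library in each group. The sequence alternative was not run. The density of 121 peaks per Mb became 211.3 over the length of the blocks only, 92.4 and 74.95 for scores at or above the list median and of 100 or more, and 55.8 and 20.3 with peaks joined over 1 and 5 kb. The ratio to the rest of the chromosome stayed above 200 in all but 2 alternatives. It was 83.4 with peaks joined over 5 kb. Over block lengths only it reversed to 0.498. There the chain of 8 peaks beyond the boundary, at 260 per Mb, was already denser than the blocks of the arm at 211.3, and each single peak counts as a block no longer than itself. The median width was 1533 bp at or above the list median and 1838 bp with peaks joined over 1 kb, and the median score 170.5 at or above the list median. The share scoring 100 or more, 61.9%, became 76.3% with the threshold at the list median of 79.1. The covered share was 52.0% over block lengths, 21.3% without the peaks at 3100 and, chosen after seeing the data, 48.3% over the blocks other than block 7. The correlation of width and score was 0.94 at or above the list median and 0.96 without the peaks at 3100. Chaining over 100 kb gave 3 blocks in place of 8 and over 20 kb gave 11. With read depth unknown, a stretch without peaks gives no upper limit on signal.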

Other observations

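Some peaks of the arm had the same width and the same score to 2 decimals as another peak of the list. Leaving out the peaks at 3100, this held for 56 of 207 short-arm peaks (27.1%, exact 95% interval 21.1 to 33.6%) and for 1667 of 3891 other peaks (42.8%, 41.3 to 44.4%). These shares are not like for like, because equal peaks were rarer among wide peaks and the mix of widths differed. Of all short-arm peaks 15.8% were under 700 bp wide, against 35.4% of the others. Among peaks of at least 1000 bp the order was the other way round, with 14 of 132 on the arm (10.6%, 5.92 to 17.2%) and 76 of 1421 elsewhere (5.35%, 4.24 to 6.65%), and these intervals overlap. In 3 pairs both peaks lay on the short arm and no other peak of the list shared their values. The widest pair, of 1695 bp and score 244.75, lay from 9680311 to 9682005 in block 2 and from 11046619 to 11048313 in block 8, 1366 kb apart. A pair of 1144 bp and score 113.53 lay from 9891527 to 9892670 in block 3 and from 11108598 to 11109741 in block 8. The third pair, of 1028 bp and score 103.84, lay 10.3 kb apart within block 1, from 9531550 to 9532577 and from 9541898 to 9542925. Of the 9 pairs of short-arm peaks of equal width from 1000 bp up, 3 had equal scores. In the whole list, which includes these 9, it was 52 of 612 such pairs (8.50%). No interval was computed for these shares, and 9 pairs are too few to set the arm apart. Whether these pairs share sequence was not tested, since no hg19 sequence was used here. The comparison was chosen after the values were seen.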
